A study of Rattus norvegicus with 6 samples.

Results

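The genes described here carry out cell cycle entry, DNA replication and mitosis, and they were followed in the renal cortex of rats given an aromatic diamine for 4 weeks. The set was a list of 41 genes, 19 of replication (G1/S) and 22 of mitosis (G2/M), taken by gene symbol. Of these, 37 were matched to at least 1 array probe, among 15645 named genes on the array, and 36 could be tested among 12130 genes. Mcm5, Top2a, Bub1b and Cenpe had no matched probe and are not analysed here. Aurkb, which encodes the kinase of the chromosomal passenger complex, was not tested because its single probe was well above background on 2 of 3 control arrays and 2 of 3 treated arrays.

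All animals were male Sprague-Dawley rats of the Crl:CD(SD) stock, bought at 5 weeks of age. The control group (n = 3) was given corn oil for 4 weeks. The treated group (n = 3) was given 4-hydroxy-m-phenylenediammonium dichloride at 100 mg/kg/day over the same period, in a vehicle not given in the sources used here. RNA of each animal was labelled with Cy3 and read on 1 array with 61537 non-control probes. Between 63.1% and 67.7% of them were well above background in controls, and between 68.9% and 69.6% in treated animals. The controls shared slide 1 and the treated animals slide 2, with separate scans, and the effect of slide and that of treatment cannot be told apart. The 7 proximal tubule markers and the 5 podocyte markers were well above background on every array. Whole cortex was measured, so more dividing cells and more RNA per dividing cell cannot be told apart. A level is given as log2 of the signal after subtracting the array's 75th percentile, and log2 fold changes are treated minus control.

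Cells that leave quiescence make D-type and E-type cyclins, whose kinases release E2F factors from the retinoblastoma proteins. E2F targets then supply the helicase, clamp and nucleotides of S phase. Later, FOXM1 and B-MYB drive the genes of mitosis, whose promoters carry a short element called the CHR (cell cycle genes homology region), often beside CCAAT boxes bound by NF-Y. Most cells of the adult renal tubule are quiescent, and they can re-enter the cycle after injury.

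Promoters of members on both sides are shown with these elements marked. E2f1 and Ccnd1 had no promoter window and are not shown. The lines below give 200 bases before the RefSeq start site, read 5′ to 3′ on the gene's own strand, with the matches in capitals: the CHR (TTTGAA, or with a central CpG TTCGAA), the CCAAT box and the E2F site. The E2F letters searched were TTTGGCG and the variants with other central bases, which read TTTCCCG in one form, with TTTCGCG and, lastly, also TTTGCCG as the remaining forms. All were searched on both strands. Cdc20, Birc5 and Cdk1 are mitosis genes with higher values in treated animals. Mcm2, Mcm6 and Mcm7 are helicase genes of replication, chosen for their E2F letters. At the brightest probe of each, Mcm7 had lower values and Mcm2 and Mcm6 differed little. On the RefSeq build GRCr8 they lie at chr5:137255800-137255999 (minus strand), chr10:103571946-103572145 (plus), chr20:19265093-19265292 (plus), chr4:122918095-122918294 (minus), chr13:42404353-42404552 (minus) and chr12:22163179-22163378 (minus), in that order.
Cdc20: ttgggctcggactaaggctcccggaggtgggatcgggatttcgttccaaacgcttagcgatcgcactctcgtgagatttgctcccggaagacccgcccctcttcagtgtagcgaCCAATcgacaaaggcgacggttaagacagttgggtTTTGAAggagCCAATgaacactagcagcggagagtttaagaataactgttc
Birc5: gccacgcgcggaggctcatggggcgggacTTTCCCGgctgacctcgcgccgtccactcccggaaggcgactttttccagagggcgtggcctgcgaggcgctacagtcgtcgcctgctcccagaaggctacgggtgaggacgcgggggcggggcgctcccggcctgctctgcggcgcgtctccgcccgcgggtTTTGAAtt
Cdk1: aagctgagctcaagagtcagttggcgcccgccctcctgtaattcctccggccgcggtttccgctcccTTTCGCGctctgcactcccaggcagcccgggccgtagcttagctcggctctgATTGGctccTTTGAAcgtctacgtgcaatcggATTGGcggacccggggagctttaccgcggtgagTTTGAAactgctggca
Mcm2: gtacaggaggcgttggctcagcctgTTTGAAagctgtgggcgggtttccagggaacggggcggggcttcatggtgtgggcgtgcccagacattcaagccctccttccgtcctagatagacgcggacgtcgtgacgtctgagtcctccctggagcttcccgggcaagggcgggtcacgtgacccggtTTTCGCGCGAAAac
Mcm6: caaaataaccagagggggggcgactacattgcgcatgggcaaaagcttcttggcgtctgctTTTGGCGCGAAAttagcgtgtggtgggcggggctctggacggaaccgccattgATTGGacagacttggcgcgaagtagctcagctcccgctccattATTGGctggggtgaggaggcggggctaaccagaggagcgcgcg
Mcm7: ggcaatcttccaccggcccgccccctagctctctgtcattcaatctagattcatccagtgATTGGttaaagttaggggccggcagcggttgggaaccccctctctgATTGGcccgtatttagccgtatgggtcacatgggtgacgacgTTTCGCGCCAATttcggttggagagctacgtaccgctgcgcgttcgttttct
In the Cdc20 promoter a CHR begins 51 bases before the start, between CCAAT boxes that begin 86 and 41 bases before it. Cdk1 has CHR matches that begin 72 and 16 bases before the start, and Birc5 has 1 that begins 8 bases before it. The long capital run in Mcm2, and the one in Mcm6, is a pair of overlapping E2F matches on opposite strands, and in Mcm7 an E2F match is followed directly by a CCAAT match. Mcm2 also holds CHR letters 175 bases before its start. The promoters shown are examples and do not stand for their class. Cenpf and Mad2l1, also higher without overlap, have a CHR that begins after the start, outside the bases shown. Kif20a and Ccnb1 had higher means in treated animals, with overlapping groups, and no CHR from 250 bases before to 50 after the start.

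Over the window of 250 bases before to 50 after the start, a promoter was found for 32 of the 41 genes. The 9 without one were Aurkb, Ccna2, Ccnd1, Ccne2, Cdc6, E2f1, Foxm1, Mcm4 and Rrm2. A CHR was present in 13 of 19 mitosis promoters (68.4%) and in 3 of 13 replication promoters (23.1%), against 19.5% of the 27457 promoters of the table. In 12 of those 13 mitosis genes a CHR began within 60 bases of the start. E2F letters were present in 7 of 13 replication promoters (53.8%) and 2 of 19 mitosis promoters (10.5%), against 7.08% of all promoters. CCAAT boxes were in 15 of 19 mitosis and 7 of 13 replication promoters, against 37.7% of all. These matches describe letters in a window and not bound sites. Among the member genes tested, the median log2 fold change was 0.17 for the 14 with a CHR and 0.13 for the 14 without. That split mixes the classes, since a CHR was more frequent in mitosis promoters. Among mitosis genes outside the member list, the median was 0.21 for 22 with a CHR and 0.22 for 8 without.

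In treated cortex E2f1 and Cdc20 rose, by 1.35-fold and 1.26-fold, and no member gene fell past the threshold. With limma, 2 of 36 members were higher at an adjusted p under 0.05 (all genes: 3.05%) and 0 were lower (all genes: 1.33%). Before adjustment, 7 were higher and 2 lower at a p under 0.05, against 11.8% and 13.2% of all genes. In 7 members every treated array was above every control array, and in 2 every treated array was below, against 14.1% and 18.7% of all genes. Neither gene passed in any of the 6 limma fits that left out 1 array, and neither passed with median scaling (limma adjusted p = 0.068 for E2f1 and 0.074 for Cdc20), with no filter (0.083 and 0.089) or with the mean of a gene's probes (0.172 and 0.056). The count of 2 in 36 rests on few genes and is near the background share. The self-test found 74.6% of simulated 2-fold changes at this sample size, and the differences here were smaller than 2-fold.

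**Figure D1:**
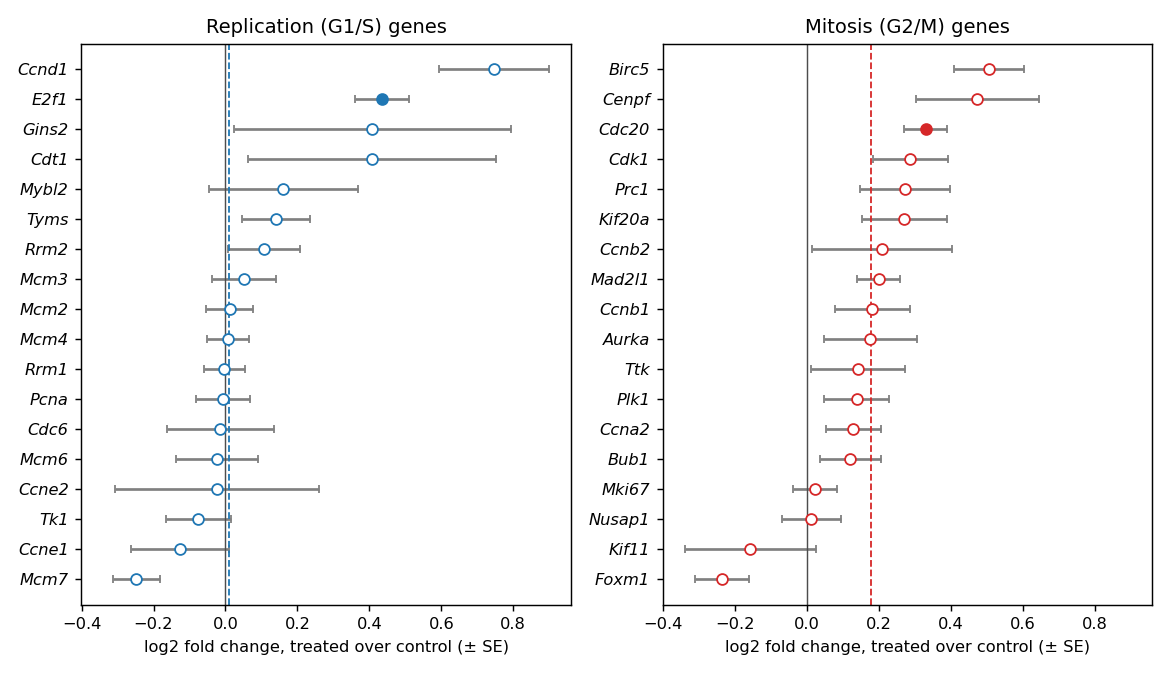
Log2 fold change of each tested member gene, treated over control, with its standard error (n = 3 each), for replication genes on the left and mitosis genes on the right. Filled points passed limma's adjusted threshold (E2f1 and Cdc20), and dashed lines mark the class medians of 0.0095 and 0.18.

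Among the G1 cyclins, Ccnd1 had the largest difference of any member. Ccnd1 encodes cyclin D1, which carries growth signals to the retinoblastoma pathway. Its log2 level was 2.74, 2.51 and 2.83 in controls and 3.63, 3.15 and 3.53 in treated animals. The groups did not overlap, and the difference of 0.75 (SE 0.15, 1.68-fold) did not pass over genes (limma adjusted p = 0.057). Its 3 probes had log2 fold changes between 0.70 and 0.75. In the fit over all probes 1 of these 3 was called higher (limma adjusted p = 0.047, against 0.068 and 0.074 for the others). In the gene fit Ccnd1 passed with a normexp background (limma adjusted p = 0.049). The cyclin E genes, whose products start S phase with CDK2, had log2 fold changes of -0.13 for Ccne1 and -0.024 for Ccne2. Control arrays of Ccne2 ran from -4.54 to -3.72 and overlapped the treated range of -4.69 to -4.07.

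E2f1, the activating E2F factor, was the member with the smallest adjusted p. Its log2 level was -1.66, -1.77 and -1.84 in controls and -1.34, -1.39 and -1.24 in treated animals. Every treated array lay above every control array, a difference of 0.44 in log2 (SE 0.076, limma adjusted p = 0.041). Its 3 probes tested had fold changes of 0.15 to 0.44, all above 0. The probe at 0.36 was well above background on 2 of 3 control arrays, so it passed the filter through the treated arrays alone. The probe at 0.15 had overlapping groups and a value of 0.013 with a normexp background. Leaving out any 1 array kept the fold change between 0.39 and 0.49 and took the adjusted p to between 0.068 and 0.115. Mybl2, which encodes B-MYB, had a log2 fold change of 0.16 (SE 0.21), and its 3 probes ran from -0.48 to 0.45.

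Of 8 licensing and helicase genes tested, 0 passed limma's adjusted threshold, and before adjustment 0 were higher and 1 was lower at a p under 0.05. Their median log2 fold change was 0.0095. MCM subunits form the ring that unwinds DNA, and CDC6 and CDT1 load it at origins. At their brightest probes Mcm2, Mcm3, Mcm4 and Mcm6 had log2 fold changes of 0.012, 0.051, 0.0072 and -0.023. Their 95% intervals were -0.15 to 0.17, -0.17 to 0.27, -0.14 to 0.15 and -0.31 to 0.26. Another Mcm2 probe was lower without overlap, at -0.23 (-0.15 with a normexp background), and did not pass (limma adjusted p = 0.166). The remaining Mcm2 probe had -0.0031, and the probes of Mcm3 ran from -0.25 to 0.051. Mcm7 was lower, at 1.56, 1.50 and 1.60 in controls and 1.25, 1.40 and 1.26 in treated animals. The groups did not overlap and the difference was -0.25 (SE 0.066, limma adjusted p = 0.094), with -0.23 at its other probe. Cdt1 and Gins2, the latter a subunit of the CMG helicase, had differences of 0.41 each with standard errors of 0.35 and 0.39. In both, 2 of 3 control arrays were well above background, and control replicate 3 was the lowest array, at -6.15 for Cdt1 and -6.47 for Gins2. Without that array the difference was 0.059 for Cdt1 and -0.043 for Gins2. Cdc6 had a log2 fold change of -0.014 with an interval of -0.38 to 0.36.

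Pcna encodes the sliding clamp of DNA polymerases. Its log2 level was 1.77, 1.81 and 1.59 in controls and 1.67, 1.74 and 1.75 in treated animals. The groups overlapped, with a difference of -0.0064 (95% interval -0.19 to 0.18, limma adjusted p = 0.970). Of the genes that supply deoxynucleotides, 0 of 4 passed in limma, and 0 had an unadjusted p under 0.05. The ribonucleotide reductase genes Rrm1 and Rrm2 had log2 fold changes of -0.0035 and 0.11. Thymidylate synthase (Tyms) and thymidine kinase (Tk1) had 0.14 and -0.075, and the other probe of Tk1 had 0.36.

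Cdk1 and its partners drive entry into mitosis. Cdk1, the mitotic kinase, was at 0.56, 0.67 and 0.38 in controls and 0.84, 0.94 and 0.69 in treated animals. The lowest treated array lay just above the highest control array, and the log2 fold change of 0.29 (SE 0.10) did not pass (limma adjusted p = 0.164). The cyclin genes Ccna2, Ccnb1 and Ccnb2 had 0.13, 0.18 and 0.21 with overlapping groups, and Ccnb1 went to -0.0057 with a normexp background. Without control replicate 3, the lowest array of Ccnb2 at -3.27, the Ccnb2 difference was -0.0011. Foxm1, the factor that drives G2/M genes, was at -1.37, -1.19 and -1.17 in controls and -1.53, -1.44 and -1.46 in treated animals. This probe was lower without overlap (log2 fold change -0.24, SE 0.075, limma adjusted p = 0.132), while the other Foxm1 probe, dimmer at a control mean of -4.88, had 0.46. With a normexp background the values were -0.088 and 0.024.

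Mki67, the proliferation antigen that coats mitotic chromosomes, showed little difference at its brightest probe. Its log2 level was 0.0032, -0.013 and -0.088 in controls and -0.081, 0.029 and 0.024 in treated animals. The groups overlapped, with a log2 fold change of 0.023 (95% interval -0.13 to 0.17, limma adjusted p = 0.845). The sign turned with median scaling (-0.011) and with a normexp background (-0.089). The other 4 probes of Mki67, all dimmer, ranged from 0.11 to 0.41. The probe at 0.41 was well above background on every array and higher without overlap. It did not pass in the fit over all probes (limma adjusted p = 0.064). With a normexp background the 5 probes ran from -0.089 to 0.29, the highest being this probe.

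Of the mitotic kinases and the passenger complex, Birc5 stood highest. Birc5 encodes survivin, a passenger protein that also binds caspases. It was at -1.19, -1.53 and -1.34 in controls and -0.85, -0.81 and -0.88 in treated animals. The treated arrays lay close together above all controls, with a log2 fold change of 0.51 (SE 0.097, 1.42-fold, limma adjusted p = 0.051). The fit over all probes called it higher, as did the gene fit limited to genes well above background on all 6 arrays (limma adjusted p = 0.045). With a normexp background Birc5 had 0.35 and did not pass (limma adjusted p = 0.077). Nor did it pass with quantile scaling, median scaling or no filter, or in any fit that left out 1 array. Aurka and Plk1, kinases of the spindle poles, had 0.18 and 0.14 and overlapping groups.

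Cdc20, which activates the anaphase-promoting complex once the spindle checkpoint is met, was at -0.44, -0.52 and -0.53 in controls and -0.11, -0.16 and -0.23 in treated animals. The treated values were separate from the controls (0.33 on the log2 scale, SE 0.060, limma adjusted p = 0.0453). Without any 1 array the difference stayed between 0.30 and 0.36, and the adjusted p was 0.089 to 0.132. Mad2l1, whose product holds CDC20 inactive, was at -1.72, -1.79 and -1.78 in controls and -1.57, -1.49 and -1.62 in treated animals, again without overlap (a difference of 0.20, SE 0.060, limma adjusted p = 0.117). The checkpoint kinases Bub1 and Ttk had 0.12 and 0.14 with overlapping groups.

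Cenpf, a kinetochore protein gene, was at -4.81, -4.47 and -4.51 in controls and -4.15, -3.83 and -4.40 in treated animals. Its groups did not overlap, and its fold change of 0.47 (SE 0.17, limma adjusted p = 0.163) was 0.21 with a normexp background. The kinesin genes differed in sign, with 0.27 for Kif20a, used in cytokinesis, and -0.16 for Kif11, which pushes spindle poles apart. Control arrays of Kif11 ran from 2.15 to 2.82 and spanned the treated range of 2.30 to 2.50. Prc1 and Nusap1, which bundle spindle microtubules, had 0.27 and 0.013.

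**Figure D2:**
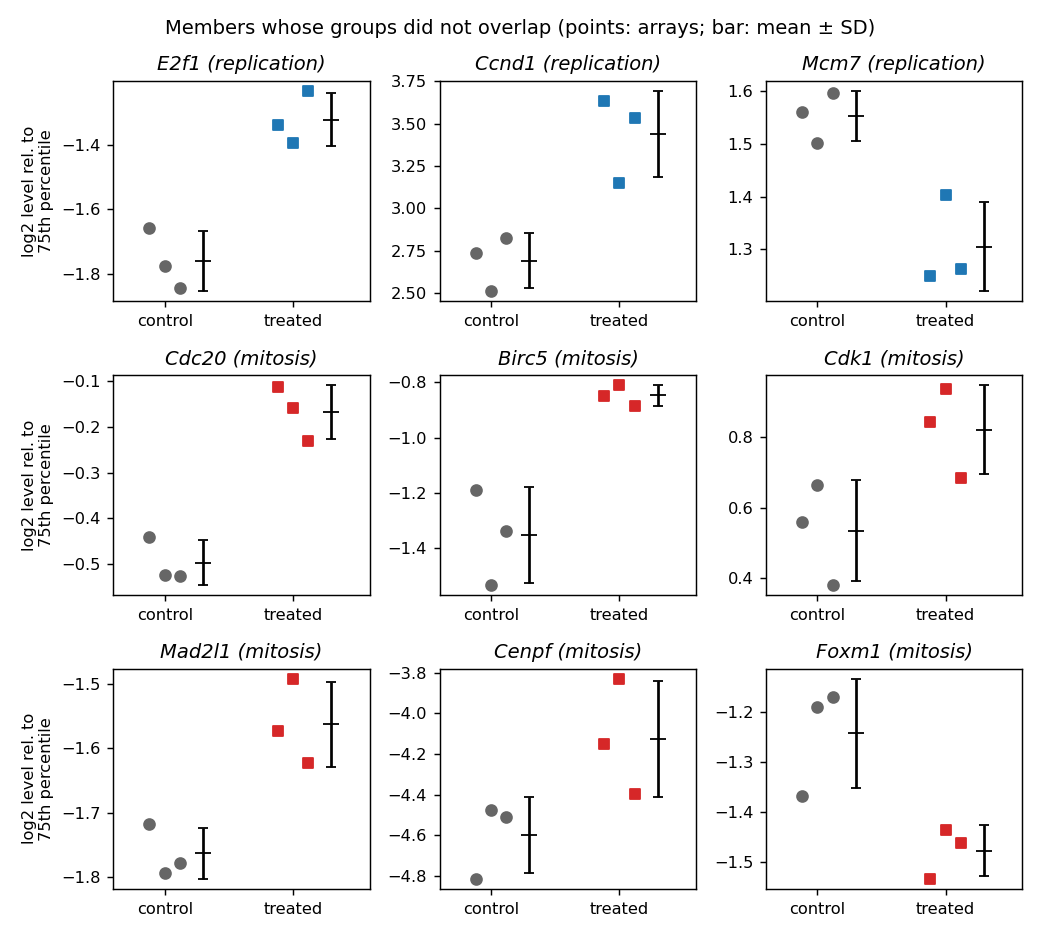
Log2 level, relative to the array's 75th percentile, of the 9 members whose groups did not overlap, with 1 point per array and the mean ± SD (n = 3) beside each group. E2f1, Ccnd1, Cdc20, Birc5, Cdk1, Mad2l1 and Cenpf were higher and Mcm7 and Foxm1 lower in treated animals, and of these E2f1 and Cdc20 passed limma's adjusted threshold.

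Probes of the same gene did not always move together. The 37 genes had 84 probes, of which 73 could be tested and 11 were too dim. In the fit over 40988 probes, 5 member probes were called higher, 1 each for E2f1, Ccnd1, Mcm4, Birc5 and Cdc20 (all probes: 4.97%), and 0 were called lower (all probes: 1.74%). With 2 or more tested probes there were 21 genes. In 11 of them all probes had the same sign and in 10 the signs were mixed, and the median range within a gene was 0.25 on the log2 scale. These counts include probes that passed the filter through the treated arrays alone and so had to tend upwards. Such probes belonged to Cenpf, E2f1, Mcm4 and Rrm2 among the genes of the same sign, and to Kif11 and Mybl2 among the mixed. The called Mcm4 probe was well above background on 0 of 3 control arrays and 3 of 3 treated arrays, and it was at least 1.42-fold higher (limma adjusted p = 0.038). Its difference of 0.78 became 0.14 with a normexp background, and the brightest Mcm4 probe had 0.0072.

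**Figure D3:**
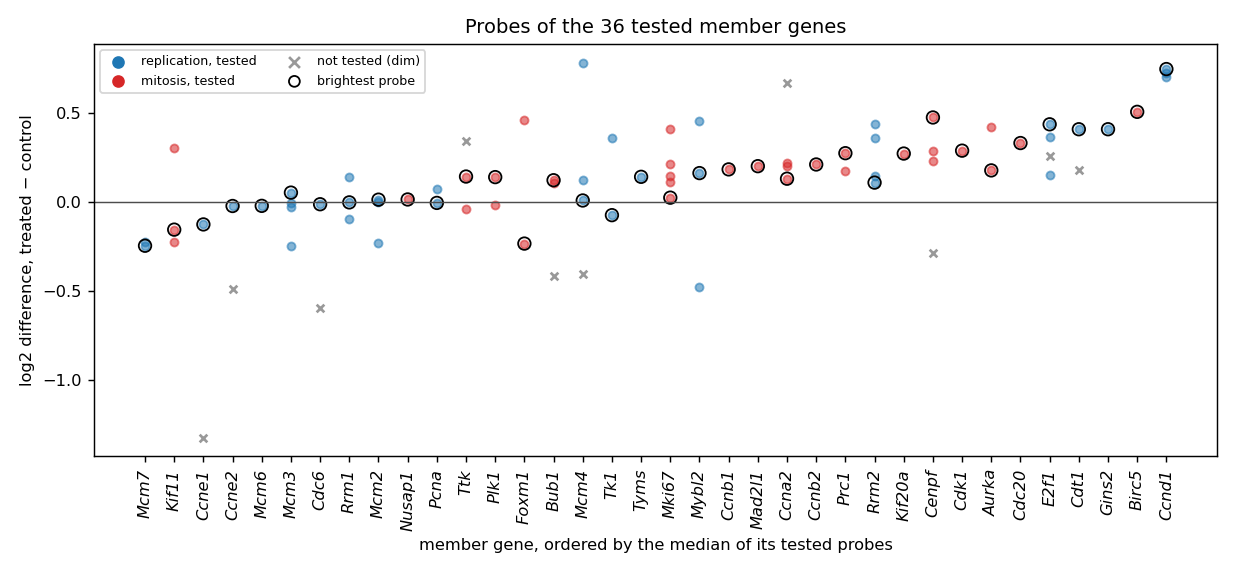
Log2 difference, treated minus control, of each probe of the 36 tested member genes, ordered by the median of the tested probes, with the brightest probe of a gene ringed and untested dim probes as crosses. Ccnd1 probes lay together at 0.70 to 0.75, whereas Mybl2 and Mcm4 probes were spread by 0.93 and 0.77.

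Set beside each other, the mitosis genes had the higher median. The median log2 fold change was 0.18 over 18 mitosis genes and 0.0095 over 18 replication genes, against -0.030 over all genes tested. Without 1 array the mitosis median ran from 0.12 (without control replicate 3) to 0.23, and the replication median from -0.0048 (without treated replicate 2) to 0.076 (without treated replicate 3). With a normexp background the medians were 0.12 and 0.017. A gene or probe that passed the filter through the treated arrays alone had to tend upwards, so counts of direction in this paragraph are given over those well above background on all 6 arrays. Counts of direction in the other lists are over all genes tested. Among members well above background on all 6 arrays, the treated mean was higher in 16 of 18 mitosis and 8 of 15 replication genes. Over all genes well above background on all 6 arrays the share was 41.4%. Of the probes, 26 of 31 for mitosis (83.9%) and 16 of 31 for replication (51.6%) had a difference above 0, against 45.0% of all such probes. With a normexp background these became 22 and 14. The other 11 member probes tested passed through the treated arrays alone, and 10 of them were above 0. Relative to the control mean of each gene, the median over mitosis genes was 0.0029, 0.12 and -0.076 on control arrays and 0.22, 0.26 and 0.096 on treated arrays. Control replicate 2 lay above treated replicate 3, so the groups overlapped. Over replication genes the same medians were 0.039, 0.0074 and -0.051 on control arrays and 0.051, 0.072 and -0.019 on treated arrays, also overlapping. The mitosis median minus the replication median was -0.037, 0.12 and -0.025 in controls and 0.16, 0.19 and 0.11 in treated animals, with control replicate 2 and treated replicate 3 nearly equal. The median over all 36 members was 0.13, and it was 0.055 without control replicate 3. No test of the difference between the classes was made, because the members were chosen with results of these arrays known.

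The other genes of each process, taken from lists that the members do not enter, gave medians on either side of 0. Of 40 other replication genes tested, 0 were higher and 2 were lower (all genes: 3.05% and 1.33%), with a median of -0.067 and 14 higher means. Those 14 include Pole and Wdhd1, which passed the filter through the treated arrays alone. Pold3, a subunit of DNA polymerase delta, was at 0.079, 0.049 and -0.17 in controls and -0.45, -0.49 and -0.64 in treated animals. It fell by 0.51 on the log2 scale (SE 0.0925, limma adjusted p = 0.0449). Of 37 other mitosis genes tested, 2 were higher and 0 lower past the threshold. Without overlap 13 were higher and 0 lower (all genes: 14.1% and 18.7%), and the median was 0.18 (0.11 with a normexp background). This median includes Cdca8, Nek2 and Kif2c, which passed the filter through the treated arrays alone. Their differences of 0.52, 0.51 and 0.053 became 0.093, 0.049 and -0.090 with normexp. The groups of these genes overlapped, so they are not among the 13. Ccnf, which encodes the ubiquitin ligase subunit cyclin F, rose by 0.79 (SE 0.095, limma adjusted p = 0.024), and Tacc3, a spindle protein gene, by 0.37 (SE 0.068, limma adjusted p = 0.046). In the limma fits that left out 1 array, 0 of the other replication genes and at most 1 of the other mitosis genes were called (1 without treated replicate 1, 0 without any other array). By array, the other mitosis median was at most 0.047 in controls and at least 0.13 in treated animals. The other replication median was at least 0.0059 in controls and at most -0.044 in treated animals.

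**Figure D4:**
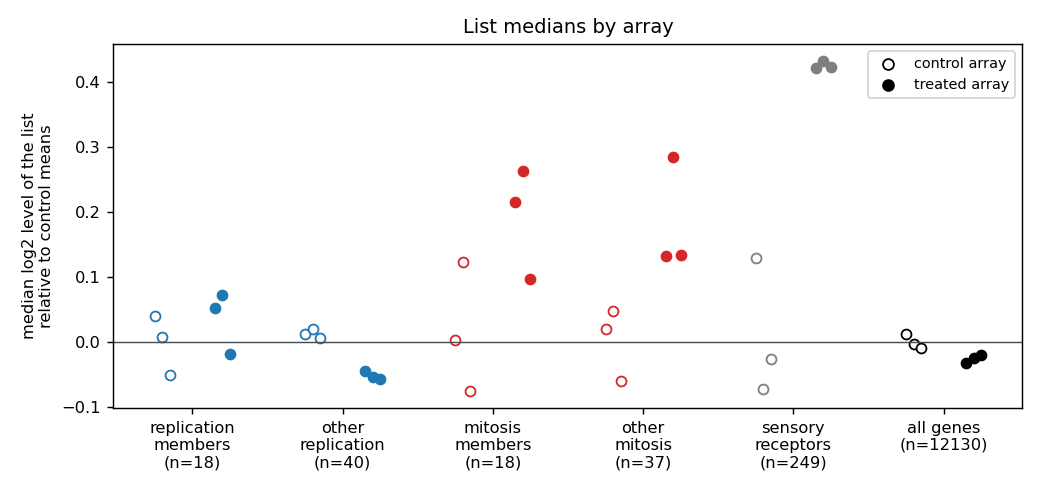
Median log2 level of each list on each array, relative to each gene's control mean, with open points for control and filled points for treated arrays. The treated arrays overlapped the controls for replication and mitosis members, lay below them for other replication genes, and lay above them for other mitosis genes and for sensory receptor genes. Each list holds all its tested genes, also any that passed the filter through the treated arrays alone.

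Genes that hold the cycle back had a median of 0.029 over 22 tested, and 0 of these passed limma's adjusted threshold. At an unadjusted p under 0.05, 4 were higher and 3 lower (all genes: 11.8% and 13.2%). The smallest p values were those of Gadd45a (log2 fold change -0.41, limma adjusted p = 0.061), a growth arrest gene, and Cdkn1a (0.35, limma adjusted p = 0.084). Cdkn1a encodes the kinase inhibitor p21. Its brightest probe was higher without overlap and passed with a normexp background (0.41, limma adjusted p = 0.039). The other Cdkn1a probes had -0.24 and -0.12. Of 13 other G1 drivers, 0 were called by limma and 1 was lower at an unadjusted p under 0.05, with a median of 0.00019. That gene was the E2F partner Tfdp1 (-0.16, limma adjusted p = 0.138), followed by Ccnd3 (0.22, limma adjusted p = 0.285).

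Signal level and markers of other cells were set beside these values. With all genes split by mean level into 4 bins of equal size, the median log2 fold change was 0.077, -0.015, -0.043 and -0.076 from the lowest to the highest bin. Of the members, 11 lay in the lowest bin with a median of 0.16, which was 0.0012 with a normexp background, and 18 lay in the next bin with 0.13, which was 0.099. The 4 mitosis genes of the lowest bin had a median of 0.20 (0.091 with normexp) and the 12 of the next bin 0.16 (0.12 with normexp). Olfactory, vomeronasal and taste receptor genes, which the cortex should hardly express, were higher in 223 of 249 tested, with a median of 0.40 (0.14 with a normexp background). Only these 249 of 1335 receptor genes with a probe were tested, and 218 of them lay in the lowest bin. The count and median were not limited to genes well above background on all 6 arrays, so the filter could favour higher values. Erythroid markers were higher in 11 of 11 tested (median 1.11, or 0.82 with a normexp background). Their summed signal, relative to the 75th percentile, was 766 to 1014 in controls and 1198 to 2146 in treated animals. Of these markers 1, Gata1, was called (all genes: 3.05%). Gata1 was well above background on 0 of 3 control arrays, so it passed the filter through the treated arrays alone. Its difference of 1.74 became 0.25 with normexp, which did not pass (limma adjusted p = 0.23). Lymphocyte markers had a median of 0.015 over 8 tested, with 0 called by limma and 1 higher at an unadjusted p under 0.05, and summed signals of 1.27 to 1.49 against 1.50 to 1.76. Macrophage and dendritic cell markers had a median of -0.11 over 6, with 1 called lower (Clec9a). Proximal tubule markers had a median of -0.15 over 7 tested, with 0 means higher and 2 called lower (Aqp1 and Anpep). Their median by array was at least -0.042 in controls and at most -0.11 in treated animals, and their summed signal was 1034 to 1142 in controls and 967 to 1006 in treated animals. The part of erythroid cells, of lymphocytes, of proximal tubule cells or of signal level in the cell cycle values was not tested.

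**Figure D5:**
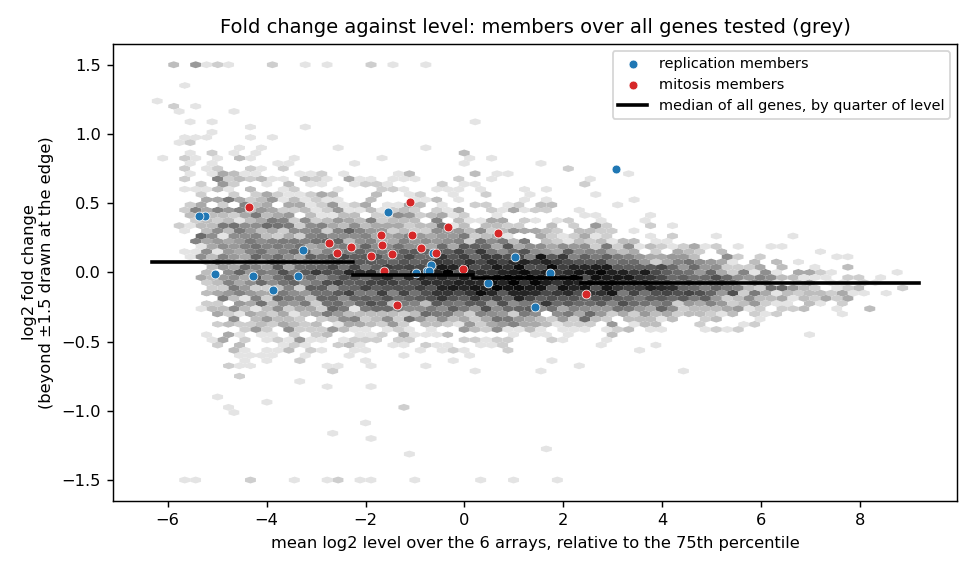
Log2 fold change against mean log2 level for member genes (coloured) over all 12130 genes tested (grey), with bars for the median of all genes in each of 4 bins of level. Mitosis genes mostly lay above the bar of their bin, replication genes lay on both sides of it, and Ccnd1 stood apart at 0.75.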

How the data were processed

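Agilent Feature Extraction 10.7.1.1, per the file headers, made the deposited spot intensity used here, a background-subtracted, detrended Cy3 signal on a design tied to rn4. In the deposited value table the values are a linear ratio, which equalled each array's signal over its 75th percentile (ratio of the 2 values 0.998), with no log and no centring by gene. Column medians ran from 0.105 to 0.109 in controls and from 0.108 to 0.110 in treated animals. No label used here records that scaling.

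Values were log2 of the signal minus the array's 75th percentile over 61537 non-control probes (raw 75th percentiles 837 to 1001). Outlier spots (1 to 3 on an array) were set to missing, and 0 were saturated. Correlations between arrays over genes, which are not independent replicates, were 0.985 to 0.994. The median log2 difference of 10 spike-in probes was -0.15. Probe accessions were matched to the RefSeq gene table of GRCr8, which named 28206 probes, and 33331 stayed unnamed. A gene was tested through its brightest probe that all arrays of 1 group or both measured well above background. The test was limma 3.58.1 (R 4.3.3, lmFit, eBayes, prior degrees of freedom 1.77) and Benjamini-Hochberg adjustment over all 12130 genes, threshold 0.05. A second fit covered 40988 probes. Where no control array was well above background, "at least" folds are the treated mean over the control mean, after each control value was raised to the lowest signal well above background on its array. The test was tried on simulated data for these 12130 genes with 200 changed genes, 5 draws: it found 74.6% of 2-fold and 91.0% of 4-fold changes, with 10.8 false of 176.4 calls. The number of arrays limits the precision.

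The members and lists were chosen with earlier results of these data known. Every member is accounted for. Members called or without overlap, and Pcna and Mki67, have their value on every array. In other lists up to 4 called genes, or the 2 with the smallest p, are named. The values of 1 called gene are not reported here. Alternatives were normexp (offset 50), median and quantile scaling, a stricter filter and none, the deposited value table, the replicate block, an intensity trend, averaged probes, a fold of at least 2, a shorter promoter window, Mybl2 placed with mitosis, and leaving out each array. Normexp used median spot and background signals, since mean spot signals were not used here, and its probe fit, and counts over probes well above background on all 6 arrays, were added after seeing the data. A block for slide could not be fitted, because each slide held 1 group.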

Additional observations from a re-analysis of the deposited data

How the results depend on the processing

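Calls rested on thin margins. In limma fits that left out 1 array, 0 to 0 members were called higher, with 4 to 10 higher before adjustment at a p under 0.05. All genes called ranged from 0 to 48 higher and from 0 to 6 lower, with 2437 to 2647 at an unadjusted p under 0.05. Other mitosis genes called higher ranged from 0 to 1 and other replication genes called lower from 0 to 0. In the same fits the median ranged from 0.055 to 0.18 over members, from -0.0048 to 0.076 over replication members, from -0.035 to 0.068 over other G1 drivers and from -0.072 to -0.044 over other replication genes. Fold changes whose sign turned ranged from -0.0011 to 0.34 (Ccnb2), -0.16 to 0.25 (Ccne2), -0.12 to 0.11 (Cdc6), -0.043 to 0.65 (Gins2), -0.027 to 0.051 (Mcm2), -0.014 to 0.096 (Mcm3), -0.018 to 0.042 (Mcm4), -0.11 to 0.057 (Mcm6), -0.0045 to 0.059 (Mki67), -0.0089 to 0.28 (Mybl2), -0.043 to 0.074 (Nusap1), -0.072 to 0.036 (Pcna) and -0.032 to 0.032 (Rrm1). With normexp, 512 genes were lower, 1 cell cycle brake was called higher, and the medians were -0.085 for other replication genes and -0.015 for brakes. Signs turned for Ccnb1 (-0.0057), Cdc6 (0.0012), Gins2 (-0.027), Mcm2 (-0.14), Mki67 (-0.089) and Pcna (0.094). With quantile scaling, 1 other mitosis gene was called, the other replication median was -0.075, and Pcna was 0.0056. With median scaling, 0 members, 1 other replication gene and 1 other mitosis gene were called, the other replication median was -0.10, and Mcm2 (-0.022), Mcm4 (-0.026), Mki67 (-0.011) and Nusap1 (-0.021) turned. Median scaling moved the median of all genes from -0.030 to -0.064. With no filter, limma called 37 genes higher and 7 lower, and 0 members, 0 member probes and 0 genes of the other replication and mitosis lists (before adjustment, 7 members were higher and 2 lower at a p under 0.05). With the filter over all 6 arrays Birc5 was called beside E2f1 and Cdc20, and the other G1 driver median was -0.046. With an intensity trend, 4 members were higher (Birc5 and Ccnd1 added), 395 genes were lower and 1 brake was lower. With the mean of a gene's probes, 0 members, 229 genes higher, 63 lower, 1 other replication gene and 1 other mitosis gene were called, and Foxm1 (0.11), Mcm2 (-0.075), Mcm3 (-0.059), Pcna (0.031), Rrm1 (0.014) and Tk1 (0.14) turned. At a fold of at least 2, the calls were 0 members, 47 genes higher, 9 lower and 0 in the other replication and mitosis lists. In promoters from 150 bases before the start, a CHR was in 1 replication member and E2F in 1 mitosis member. Except where an alternative's own construction leaves fewer arrays or calls, the cause was not tested. 

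Deviations of same-numbered arrays correlated at -0.12, -0.11 and 0.089, and 1 of 3 control arrays and 1 of 3 treated arrays correlated best with their own number. No pairing of the animals is stated, and with 3 arrays in each group these values cannot decide it. With the replicate block, limma called 0 members, 0 genes higher, 0 genes lower and 0 in the other lists, with 2547 genes at an unadjusted p under 0.05.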
